A study of Mus musculus with 2 samples.

Results

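The 10 genes described here encode receptors, ligands, a DNA-binding partner and transcriptional targets of the Notch pathway, and were taken by gene symbol from the 32285 genes of the expression matrix, where each symbol named 1 row. They are the ligands *Jag1*, *Jag2* and *Dll4*, the receptors *Notch1*, *Notch2* and *Notch3*, the nuclear partner *Rbpj*, and the targets *Hes1*, *Hey1* and *Heyl*. They were measured by single-nucleus multiomics, in which RNA and open chromatin (ATAC) are read from the same nucleus, in whole testes of mice at embryonic day E14.5 carrying *Nr5a1-cre* and *Rosa-tdTomato*. In these animals Cre is made where the *Nr5a1* promoter is active, and tdTomato marks cells that have had Cre. The testes were frozen in liquid nitrogen, the nuclei were not sorted by tdTomato, and how many embryos were pooled is unknown from the labels and methods. There was 1 RNA library and 1 ATAC library and no second genotype or treatment, so no comparison had replicates and no test was made. Each interval below is a 95% interval that covers counting error only, and those from ATAC cuts are narrower than that.

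Notch is a pathway of direct cell contact. A ligand on a sending cell pulls on a receptor of its neighbour, the receptor is cut, and its inner part enters the nucleus, where it joins RBPJ and switches on genes such as those of the Hes and Hey families of transcriptional repressors. In the fetal testis the pathway is known for holding interstitial progenitors back from becoming Leydig cells, and in vessels it is known for arterial identity and for the pairing of endothelium with pericytes.

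Of 9833 barcodes with 122049390 UMIs (unique molecules counted) in all, 7197 nuclei were kept, with a median of 7949 UMIs and 4484 fragments. They fell into 13 clusters and 12 classes, named by marker genes of which none belonged to the Notch pathway, and 54 pathway genes with the peaks within 10 kb of them were held out of the clustering. The classes used most below were progenitor-like (2595 nuclei, with *Pdgfra* at 653 and *Adam23* at 472 CPM, counts of UMIs per 1000000 UMIs of the class), Leydig-like (756 nuclei, *Cyp17a1* at 1790 CPM), Sertoli-like (830 nuclei, *Dmrt1* at 263 CPM), germ-like (990 nuclei, *Dazl* at 719 CPM), endothelial-like (97 nuclei, *Flt1* at 837 CPM) and pericyte-like (66 nuclei, *Dgkb* at 1368 CPM). Of 6 progenitor markers, 4 were highest in the progenitor-like class, while *Tcf21* (53.8 CPM) and *Wnt5a* (385 CPM) were higher in contractile-like nuclei (89.7 and 588 CPM), which also held *Pdgfra* at 525 CPM. Nuclei that may be mixed were a limit in every class: 958 kept nuclei lay over the automatic threshold of the doublet caller Scrublet, and they held 77.7% of the UMIs of the endothelial-like class, 63.5% of the immune-like, 47.2% of the germ-like, 37.1% of the Leydig-like, 33.3% of the pericyte-like, 30.1% of the Sertoli-like and 11.2% of the progenitor-like. Markers were also counted outside their own class: the Leydig marker *Cyp17a1* stood between 149 CPM (surface epithelium-like) and 341 CPM (pericyte-like) in the other classes, with 213 CPM in endothelial-like nuclei. The Sertoli marker *Dmrt1* stood at 175 CPM in germ-like nuclei, and *Amh* at 69.0 CPM in Sertoli-like and 60.4 CPM in immune-like nuclei. *Sox9* and *Dhh* stood at 44.3 and 44.7 CPM in Sertoli-like and 8.54 and 5.68 CPM in germ-like nuclei. Values without the nuclei over that threshold are therefore given beside many of the levels and ratios below, and their part in the results was not tested further.

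Promoter sequence is shown for 4 members, since open chromatin was read at the same places: *Dll4*, for which no peak lay within 2 kb of the start, *Jag1*, whose openness did not differ between progenitor-like and Leydig-like nuclei beyond counting error, *Notch3*, which was more open in progenitor-like nuclei, and *Rbpj*, the only member of the 7 in the promoter table that held letters of the RBPJ core. Each runs 5′ to 3′ on the gene's strand from 250 bases before to 50 after the start in RefSeq (GRCm38.p6), at chr2:119325534-119325833 (+) for *Dll4*, chr2:137116471-137116770 (−) for *Jag1*, chr17:32166841-32167140 (−) for *Notch3* and chr5:53590096-53590395 (+) for *Rbpj*. Capitals mark TGGGAA or its reverse complement TTCCCA, the core letters to which RBPJ binds, and a match is a description of letters and not a bound site.
Dll4: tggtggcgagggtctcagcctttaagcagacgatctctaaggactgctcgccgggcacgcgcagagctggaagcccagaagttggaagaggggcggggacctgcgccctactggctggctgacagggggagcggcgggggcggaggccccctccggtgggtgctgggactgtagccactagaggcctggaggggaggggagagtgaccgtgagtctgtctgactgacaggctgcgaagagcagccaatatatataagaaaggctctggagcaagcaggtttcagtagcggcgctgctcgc
Jag1: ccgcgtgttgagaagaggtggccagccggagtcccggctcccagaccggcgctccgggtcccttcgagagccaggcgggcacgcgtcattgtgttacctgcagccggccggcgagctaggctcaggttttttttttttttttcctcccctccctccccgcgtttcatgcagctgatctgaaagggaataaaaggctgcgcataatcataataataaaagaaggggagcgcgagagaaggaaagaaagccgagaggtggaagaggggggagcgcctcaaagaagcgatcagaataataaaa
Notch3: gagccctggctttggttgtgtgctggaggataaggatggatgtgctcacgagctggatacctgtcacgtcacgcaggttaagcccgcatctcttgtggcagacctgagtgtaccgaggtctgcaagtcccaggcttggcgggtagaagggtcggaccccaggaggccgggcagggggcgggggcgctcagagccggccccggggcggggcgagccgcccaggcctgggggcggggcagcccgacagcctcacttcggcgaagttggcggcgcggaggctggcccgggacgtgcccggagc
Rbpj: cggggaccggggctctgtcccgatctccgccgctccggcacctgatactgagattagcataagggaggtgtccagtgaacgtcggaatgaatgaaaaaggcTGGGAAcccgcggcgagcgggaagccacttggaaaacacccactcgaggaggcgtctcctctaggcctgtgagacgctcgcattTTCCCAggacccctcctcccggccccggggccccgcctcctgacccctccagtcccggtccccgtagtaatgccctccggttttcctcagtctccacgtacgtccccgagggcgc
The letters TGGGAA or TTCCCA were found in 25.6% of 32851 RefSeq promoters of this length. Among the 8 promoters of the 7 members in the table they were found only in the 2 overlapping promoters of *Rbpj*. The targets *Hes1*, *Hey1* and *Heyl* had no promoter sequence there, so their promoters were not searched for these letters. The deposited peaks covered all 300 bases of the *Notch3* promoter, 270 of *Rbpj*, 120 of *Jag1* and 0 of *Dll4*.

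**Figure D1:**
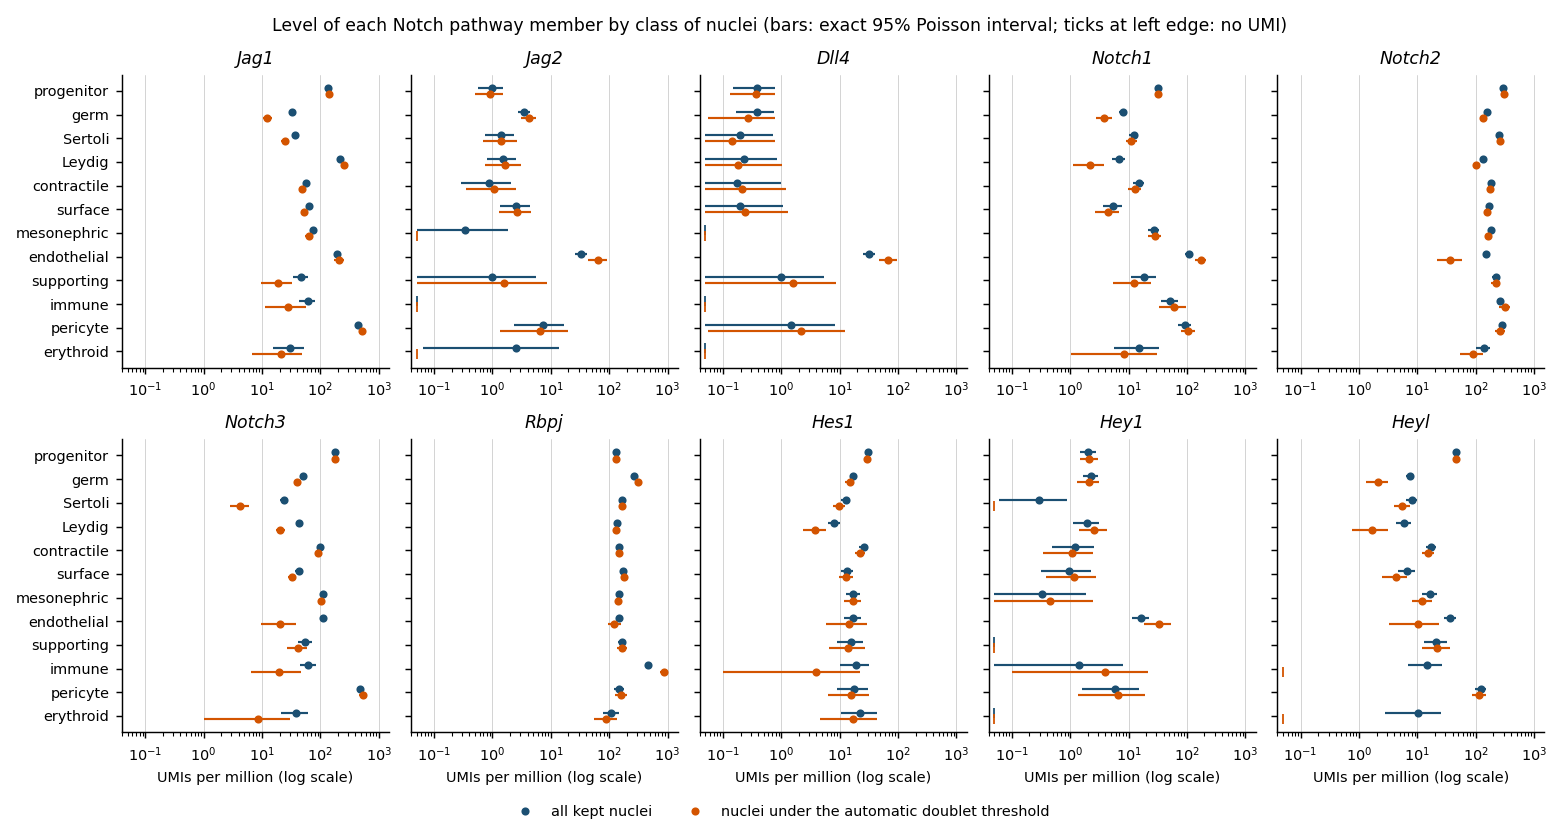
Level of each member in each class of nuclei, in UMIs per 1000000 (CPM) on a log axis, with exact 95% Poisson intervals. Blue points are all kept nuclei, orange points the nuclei under the automatic doublet threshold, and ticks at the left edge mark classes with no UMI. *Jag1*, *Notch3* and *Heyl* are highest in pericyte-like nuclei, *Dll4*, *Jag2* and *Hey1* in endothelial-like nuclei, and *Notch2* is present in every class.

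The ligand *Jag1* (chr2:137081456-137116644, mm10, minus strand), which encodes a ligand of the Jagged family, was highest in pericyte-like nuclei and next in Leydig-like nuclei. Its level was 442 CPM (394 to 495) in pericyte-like, 219 (209 to 229) in Leydig-like, 189 (172 to 209) in endothelial-like and 138 (133 to 143) in progenitor-like nuclei. Each of these 4 classes was above the next over all kept nuclei, by 2.02-fold (1.78 to 2.28), 1.15-fold (1.04 to 1.29) and 1.37-fold (1.24 to 1.53). The step from Leydig-like to endothelial-like nuclei was within counting error under the doublet threshold (1.21, 0.989 to 1.49). Germ-like and Sertoli-like nuclei were the lowest of the 11 classes with at least 50 nuclei, at 32.9 (30.5 to 35.5) and 37.2 CPM (33.5 to 41.1), which did not differ beyond counting error. The germ-like level was 12.4 CPM without the nuclei over the doublet threshold, against 253 CPM in Leydig-like nuclei. A *Jag1* UMI was found in 81.2% of Leydig-like nuclei and in 25.2% of germ-like nuclei, with median depths of 9858.5 and 15617 UMIs. After thinning each nucleus to 2000 UMIs the shares were 33.6% and 4.35%. Free RNA was not measured, and its profile was taken as the summed counts of all 9833 barcodes, germ-like nuclei included. On that profile free RNA could account for 36.3 CPM in germ-like nuclei, above the 32.9 CPM counted there. Nuclei over the doublet threshold carried part of that count too, so the germ-like share is not read as expression. These sources cannot be told apart. The Sertoli-like allowance was 7.45 CPM, but germ markers could bound that share and not the germ-like one. *Cyp17a1* stood at 152 CPM in germ-like and 181 CPM in Sertoli-like nuclei. The low Sertoli-like level of *Jag1* is therefore not read as expression either.

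*Dll4* (chr2:119325784-119335962, plus strand), a ligand of the Delta-like family known for tip cells and arteries, was found almost only in endothelial-like nuclei. That class held 70 of its 93 UMIs, a level of 32.0 CPM (24.9 to 40.4), while the 2595 progenitor-like nuclei held 7 and the pericyte-like nuclei 1. Set against progenitor-like nuclei, the endothelial-like class was 84.8-fold higher (39.1 to 219), and it stood at 67.6 CPM (46.5 to 94.9, 33 UMIs) in the nuclei under the doublet threshold, where that ratio was 186 (76.9 to 543). A *Dll4* UMI was seen in 34.0% of endothelial-like nuclei (median 9317 UMIs) and 0.606% of germ-like nuclei (15617 UMIs), or in 5.21% and 0 after thinning.

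*Jag2* (chr12:112907819-112929776, minus strand), the other Jagged ligand, was also highest in endothelial-like nuclei, at 32.9 CPM (25.7 to 41.4, 72 UMIs). Without the nuclei over the doublet threshold this level was 63.5 CPM. The germ-like class held the same number of UMIs, 72, over many more nuclei, a level of 3.44 CPM (2.69 to 4.33), and the endothelial-like level was 9.57 times higher (6.80 to 13.4), or 15.3 times (9.36 to 24.6) under the threshold. The remaining classes, pericyte-like nuclei at 7.34 CPM (5 UMIs) apart, stood at or below 2.53 CPM.

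Of the receptors, *Notch3* (chr17:32120820-32166852, minus strand), which is known from mural cells of vessels, was highest in pericyte-like nuclei at 479 CPM (428 to 534) and second in progenitor-like nuclei at 178 CPM (172 to 184), a ratio of 2.70 (2.40 to 3.02). It was lowest in Sertoli-like nuclei, at 23.5 CPM (20.6 to 26.7). With the nuclei over the doublet threshold left out, the pericyte-like and progenitor-like levels were 531 and 180 CPM, whereas Sertoli-like nuclei came to 4.26, Leydig-like to 20.8 and endothelial-like to 20.5 CPM from 112. Thus the third place of endothelial-like nuclei in the order for *Notch3* rested on the nuclei over that threshold. A *Notch3* UMI was present in 59.0% of progenitor-like nuclei and 11.9% of Sertoli-like nuclei (median depths 6271 and 9845 UMIs), and in 27.6% and 2.30% after thinning.

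*Notch1* (chr2:26457903-26516663, minus strand), the receptor best known from endothelium and lymphocytes, was highest in the vessel classes. It stood at 107 CPM (93.6 to 121) in endothelial-like and 92.5 CPM (71.1 to 118) in pericyte-like nuclei, which did not differ beyond counting error over all kept nuclei (ratio 1.15, 0.871 to 1.55). Under the doublet threshold the levels were 174 and 106 CPM, and the endothelial-like level was higher beyond counting error (1.65, 1.14 to 2.40). Immune-like nuclei followed at 51.8 CPM and progenitor-like nuclei at 32.3 CPM (29.8 to 35.0). Leydig-like nuclei had 6.88 CPM (5.25 to 8.85), and 2.19 CPM under the doublet threshold.

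*Notch2* (chr3:98013527-98150361, plus strand), a receptor made in many tissues, was found in every class. Its level was 296 CPM (289 to 304) in progenitor-like, 285 in pericyte-like, 265 in immune-like and 251 (241 to 261) in Sertoli-like nuclei, and no neighbours among these 4 differed beyond counting error. Leydig-like nuclei, at 131 CPM (124 to 139), and endothelial-like nuclei, at 148 CPM (133 to 165), were lowest of the 11 classes and did not differ beyond counting error. Under the doublet threshold endothelial-like nuclei were lowest, at 36.9 CPM (21.8 to 58.3).

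*Rbpj* (chr5:53466152-53657362, plus strand), which encodes the DNA-binding protein through which all Notch receptors act, was present in all classes. It stood apart in immune-like nuclei at 470 CPM (421 to 524) and germ-like nuclei at 271 CPM (264 to 278), and the other classes lay between 108 and 175 CPM. The immune-like level was 1.74 times the germ-like level (1.55 to 1.94) and was 860 CPM (749 to 982) once nuclei over the doublet threshold were left out, a ratio of 2.75 (2.38 to 3.15). The germ-like level was 1.65 times the Sertoli-like level (1.56 to 1.75).

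The targets followed separate classes. *Heyl* (chr4:123233556-123249875, plus strand), a Hey-family repressor known from smooth muscle and pericytes, was highest in pericyte-like nuclei at 122 CPM (97.1 to 151), followed by progenitor-like nuclei at 45.2 CPM (42.2 to 48.4), a ratio of 2.70 (2.13 to 3.38). Leydig-like nuclei had 5.85 CPM (4.35 to 7.69), which over all kept nuclei did not differ beyond counting error from the 6.61 CPM of surface epithelium-like nuclei. Under the doublet threshold Leydig-like nuclei had 1.64 CPM (0.750 to 3.11) and surface epithelium-like nuclei 4.24 CPM (2.51 to 6.70), and immune-like nuclei held 0 UMIs. A *Heyl* UMI was found in 22.3% of progenitor-like nuclei and 4.63% of Leydig-like nuclei, which had median depths of 6271 and 9858.5 UMIs, and in 8.40% and 0.398% after thinning. Endothelial-like nuclei had 36.5 CPM, but 10.2 CPM under the threshold.

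*Hes1* (chr16:30064384-30067796, plus strand), a Hes-family repressor and a common direct target, was highest in progenitor-like nuclei at 30.03 CPM (27.6 to 32.6) and contractile-like nuclei at 25.9 CPM (21.8 to 30.4), which did not differ beyond counting error over all kept nuclei (ratio 1.16, 0.967 to 1.4). Under the doublet threshold progenitor-like nuclei were higher beyond it (1.33, 1.07 to 1.66). Leydig-like nuclei were lowest of the 11 classes, at 8.14 CPM (6.36 to 10.3), and had 3.83 CPM under the threshold. *Hey1* (chr3:8663359-8667256, minus strand), a Hey-family repressor known from arterial endothelium, was highest in endothelial-like nuclei at 16.4 CPM (11.5 to 22.8, 36 UMIs), 8.04-fold above the 2.04 CPM of progenitor-like nuclei (4.95 to 13). Its endothelial-like level was 32.8 CPM under the doublet threshold, where the ratio was 15.5 (7.99 to 28.7), and Sertoli-like nuclei held 3 *Hey1* UMIs in all and 0 under the threshold.

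Progenitor-like nuclei were compared with Leydig-like nuclei because fetal Leydig cells arise from interstitial progenitors. The receptors *Notch1*, *Notch2* and *Notch3* and the targets *Hes1* and *Heyl* were at least 2-fold higher in progenitor-like nuclei, and *Jag1* was higher in Leydig-like nuclei. *Heyl* was 7.73-fold higher in progenitor-like nuclei (5.83 to 10.5), *Notch1* 4.70-fold (3.60 to 6.24), *Notch3* 4.07-fold (3.66 to 4.53), *Hes1* 3.69-fold (2.88 to 4.79) and *Notch2* 2.26-fold (2.12 to 2.41). *Jag1* was 1.59-fold higher in Leydig-like nuclei (1.49 to 1.68), under the 2-fold limit. *Rbpj* differed by less than counting error (ratio 0.995, 0.928 to 1.07), and so did *Hey1* (1.05, 0.578 to 1.98) and *Jag2* (0.650, 0.301 to 1.44). Of the 9 members with at least 20 UMIs over both classes, 5 were at least 2-fold higher in progenitor-like nuclei and 0 were at least 2-fold higher in Leydig-like nuclei, beside 15.2% and 13% of the 15431 genes that passed the same minimum (28.1% in either direction), and *Dll4*, with 9 UMIs, did not pass it. The median log2 ratio was 1.17 over the 9 members and -0.01 over all genes that passed. Leaving out nuclei over the doublet threshold moved the ratios of *Heyl* to 28.1, *Notch1* to 14.9, *Notch3* to 8.68, *Hes1* to 7.77 and *Notch2* to 2.99. With clusters from ATAC alone the *Notch2* ratio was 1.79, under the 2-fold limit.

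Sertoli-like nuclei were set beside germ-like nuclei, the cell types that share the testis cords. *Hey1* was 7.70-fold higher in germ-like nuclei (2.48 to 38.6, on 48 and 3 UMIs), *Jag2* 2.47-fold (1.38 to 4.75) and *Notch3* 2.13-fold (1.84 to 2.46). *Notch2* was 1.59-fold higher in Sertoli-like and *Rbpj* 1.65-fold higher in germ-like nuclei. So 3 of 9 members with enough UMIs were at least 2-fold higher in germ-like and 0 in Sertoli-like nuclei, beside 22.6% and 13.9% of 17226 genes (36.5% in either direction), and *Dll4*, with 10 UMIs, was again under the minimum. The median log2 ratio of Sertoli-like over germ-like nuclei was -0.42 over the 9 members and -0.16 over all genes. These counts changed with the nuclei used. Shares over all genes were counted for all kept nuclei only, so the counts that follow have no background of their own. Under the doublet threshold 3 members were at least 2-fold higher in each class, with *Notch1*, *Jag1* and *Heyl* higher in Sertoli-like nuclei. *Notch3* then stood 9.24-fold higher in germ-like nuclei (6.38 to 13.9). With free RNA subtracted there were also 3 on each side: *Notch1* (0.652 CPM left in germ-like nuclei), *Heyl* and *Jag1* (both near or at 0 there) were higher in Sertoli-like nuclei, and *Jag2*, *Hey1* and *Rbpj* (a ratio of Sertoli-like over germ-like nuclei of 0.492) in germ-like nuclei. *Notch3* was then no longer past 2-fold (0.679), and 4 other alternatives, without doublet removal, with stricter minimums, with clusters from RNA alone and at the finer resolution, gave 0.562 to 0.656. The profile of free RNA could account for at most 38.6% of germ-like UMIs and 7.93% of Sertoli-like UMIs by the markers of other classes. A class's own markers could not be used, so germ markers could bound the Sertoli-like share but not the germ-like one. The 2 shares are therefore not on one footing, and the values after subtraction carry that difference.

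Endothelial-like and pericyte-like nuclei, the lining and the wall of vessels, divided the members. *Dll4* was 21.8-fold higher in endothelial-like nuclei (3.78 to 871, on 70 and 1 UMIs), *Jag2* 4.48-fold (1.83 to 14.2) and *Hey1* 2.80-fold (1.003 to 10.8). *Notch3* was 4.28-fold higher in pericyte-like nuclei (3.62 to 5.07), *Heyl* 3.34-fold (2.43 to 4.60) and *Jag1* 2.33-fold (2.01 to 2.71). In counts, 3 of 10 members were at least 2-fold higher on each side, beside 12.5% of 10428 genes for endothelial-like and 6.31% for pericyte-like nuclei (18.9% in either direction). The median log2 ratio of endothelial-like over pericyte-like nuclei was -0.03 over the 10 members and 0.06 over all genes. *Notch2* was 1.92-fold higher in pericyte-like nuclei (1.60 to 2.30), and 7.05-fold (4.28 to 12.3) under the doublet threshold, where *Notch3* was 25.9-fold (13.9 to 54.8) and *Heyl* 11.2-fold higher (4.50 to 35.9). On the endothelial-like side *Jag2* was then 9.60-fold higher (2.996 to 49.1, on 31 and 3 UMIs), while *Hey1*, with 16 and 3 UMIs, was under the minimum of 20.

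**Figure D2:**
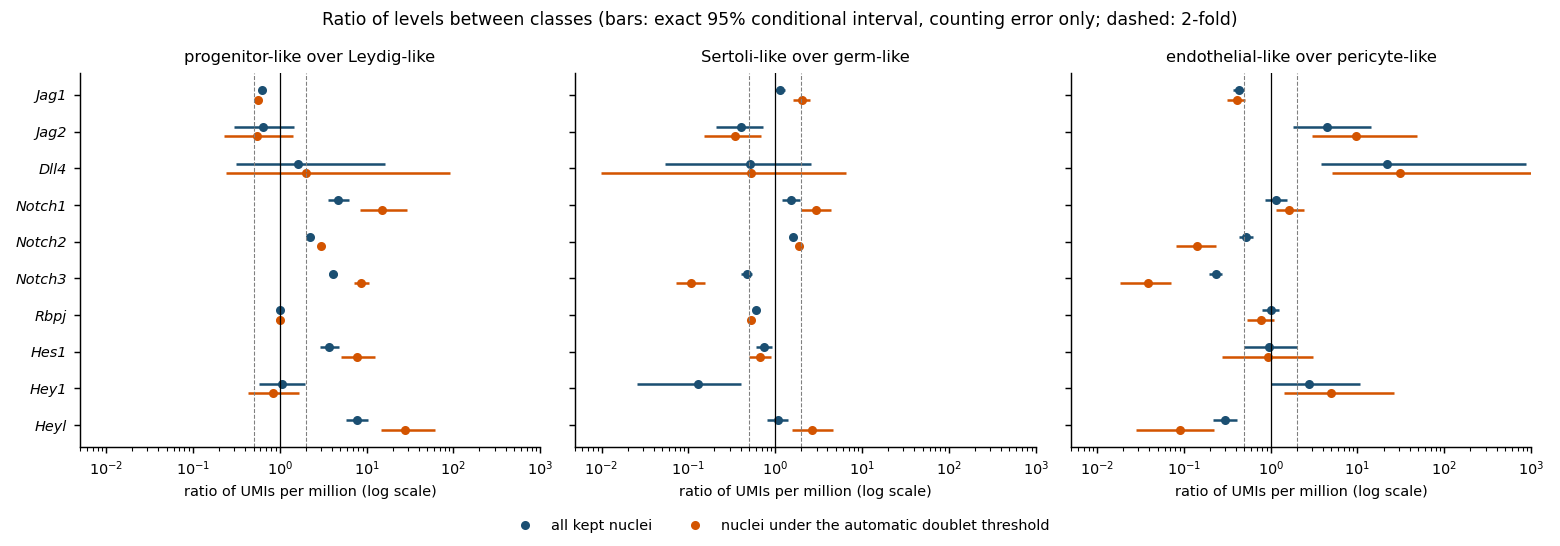
Ratio of the levels of each member between 2 classes, on a log axis, with exact 95% conditional intervals. Blue points are all kept nuclei, orange points the nuclei under the automatic doublet threshold, dashed lines mark 2-fold, and *Hey1* has no orange point in the middle panel because Sertoli-like nuclei held 0 UMIs there. *Heyl*, *Notch1*, *Notch3*, *Hes1* and *Notch2* lie to the right of the 2-fold line for progenitor-like over Leydig-like nuclei.

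At the finer resolution of 0.6 the endothelial-like class split into a cluster of 33 nuclei, with *Gja5* among its leading genes, and a cluster of 64 nuclei, led by *Klhl4* and *Dipk2b*. *Gja5* encodes a gap junction protein known from arterial endothelium. *Dll4* had 59 UMIs in the *Gja5* cluster, 48.4 CPM (36.8 to 62.4), and 11 UMIs in the other, 11.3 CPM (5.66 to 20.3). *Hey1* had 34 UMIs (27.9 CPM, 19.3 to 39.0) and 2 UMIs (2.06 CPM, 0.250 to 7.44). *Jag1* stood at 248 CPM (221 to 278) in the *Gja5* cluster and 115 CPM (95 to 139) in the other. Under the doublet threshold, with 19 and 41 nuclei left, *Dll4* was at 182 and 15.0 CPM, *Hey1* at 97.4 and 2.99 CPM, and *Jag1* at 455 and 95.7 CPM. The clusters were looked at after their values were seen, and cells of a cluster are not replicates.

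**Figure D3:**
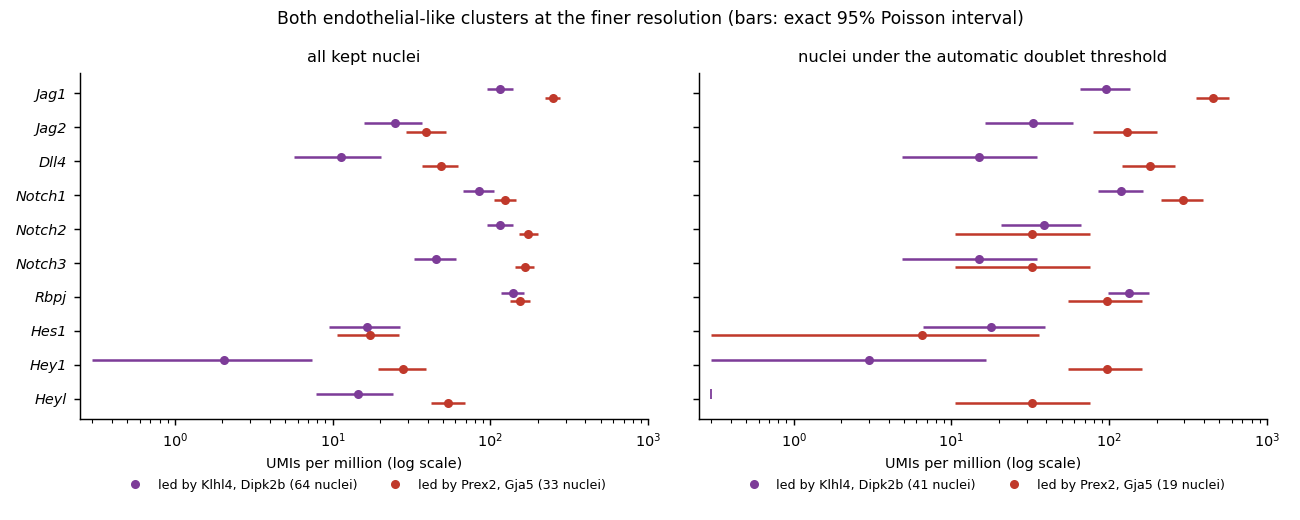
Level of each member in both endothelial-like clusters at the finer resolution, in UMIs per 1000000 (CPM) on a log axis, with exact 95% Poisson intervals, for all kept nuclei on the left and for nuclei under the doublet threshold on the right. *Dll4*, *Hey1* and *Jag1* are higher in the cluster with *Gja5* in both panels, while *Notch3* is so on the left alone (the intervals overlap on the right, where each cluster held 5 UMIs).

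Open chromatin was read at the promoters as cuts and fragments in peaks within 1 kb of the start, and 9 of the 10 members had such a peak, 12 peaks in all. Cuts come mostly in pairs, and 87.1% of nonzero peak counts were even. Intervals from cuts take each cut as separate, so they are too narrow, and those from fragments are given where counted. The deposited files give a single start for each member but *Rbpj*, whose entry is a longer interval, and there a peak within that distance of either end counted. Its promoter peak lies at the far end (chr5:53590126-53590917), over the printed promoter and downstream of the first base of the gene as annotated. *Notch3* had 2 promoter peaks, at chr17:32166537-32167346 and chr17:32165498-32166336, of which the first covers the printed promoter. They held 410 fragments of progenitor-like nuclei and 36 of Leydig-like nuclei, 79.2 and 30.6 per 1000000 fragments at peaks, a ratio of 2.59 (1.84 to 3.75). The *Heyl* promoter peak at chr4:123233253-123234166 held 190 and 16 fragments, 36.7 and 13.6 per 1000000, a ratio of 2.70 (1.62 to 4.82). In this comparison both genes were therefore more open at the start in the class where their RNA was higher, which was not so for every member and pair of classes. *Hes1* (1.81, 1.4 to 2.39) and *Notch1* (1.55, 1.06 to 2.36) were more open in progenitor-like nuclei as well, by less than 2-fold. The deposited start of *Notch1* lies inside the gene as annotated. At the annotated end, 12646 bp away, a peak (chr2:26516028-26516908) was 3.30-fold higher in progenitor-like nuclei (1.74 to 7.02, on 145 and 10 cuts). *Rbpj* was the reverse in its promoter peak (0.754, 0.587 to 0.977) and, by cuts, over its peaks within 2 kb (0.813, 0.711 to 0.931). It was within counting error over the whole of that longer interval with 1 kb on either side (0.861, 0.733 to 1.01). *Notch2* (1.09, 0.804 to 1.51), *Jag1* (0.905, 0.665 to 1.25), *Hey1* (1.01, 0.796 to 1.3) and *Jag2* (0.769, 0.492 to 1.24) did not differ beyond counting error. By cuts, 2 of 9 members were at least 2-fold more open in progenitor-like nuclei and 0 in the Leydig-like class, beside 5.49% and 4.01% of 18339 genes (9.49% in either direction).

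**Figure D4:**
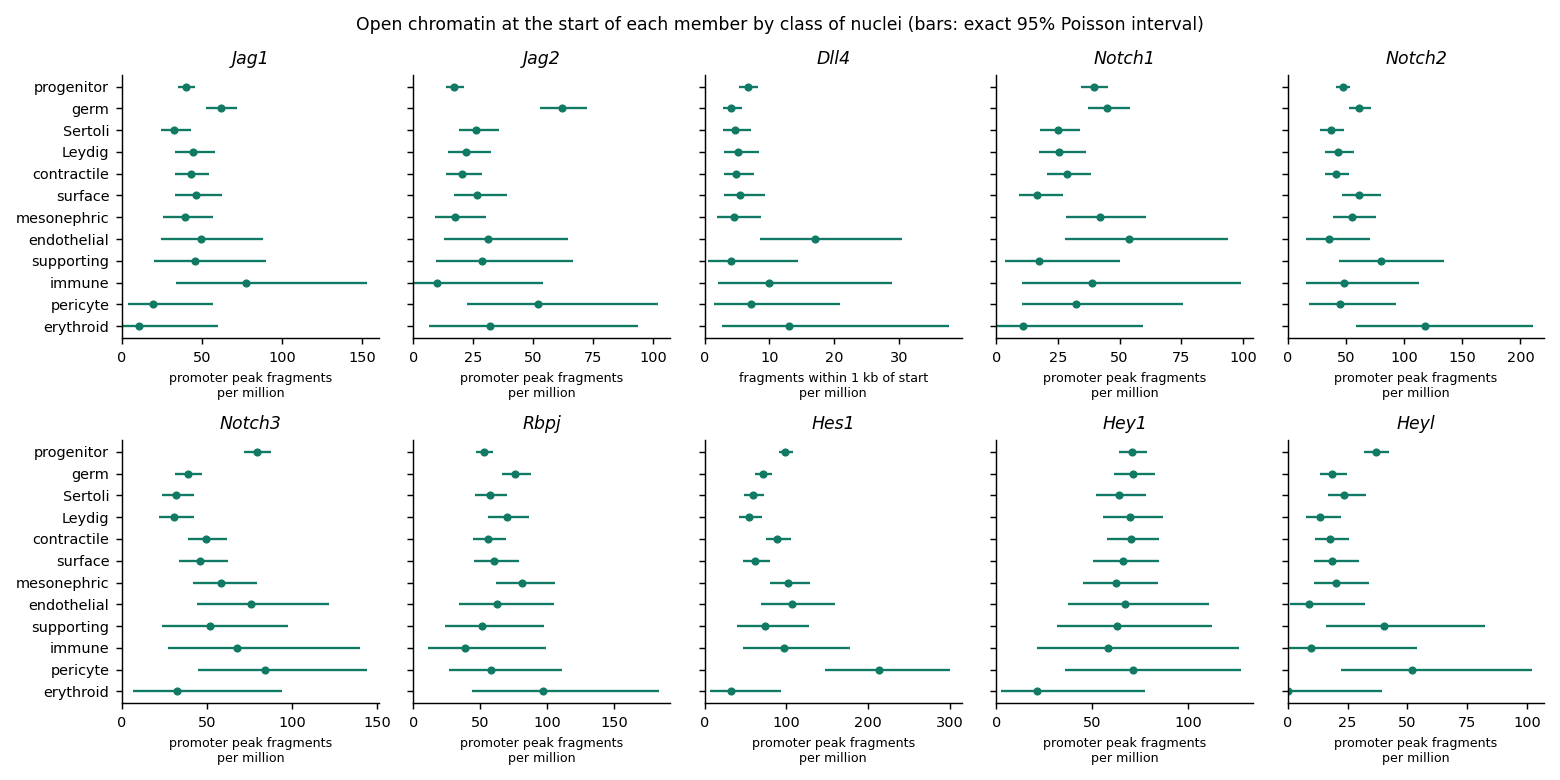
Fragments in the promoter peaks of each member, per 1000000 fragments at peaks of the class, with exact 95% Poisson intervals, and for *Dll4* fragments within 1 kb of the start per 1000000 fragments. *Notch3* and *Heyl* stand higher in progenitor-like than in Leydig-like nuclei, *Jag2* stands highest in germ-like nuclei, and the intervals of classes under 100 nuclei are wide.

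At the *Jag2* promoter, germ-like nuclei were the most open of the large classes, with 157 fragments, 62.0 per 1000000. That was 3.64-fold above progenitor-like nuclei (17.0 per 1000000, 2.79 to 4.79) and 2.36 times the Sertoli-like level (1.67 to 3.42). Endothelial-like nuclei, where *Jag2* RNA was highest, had 31.3 per 1000000 (12.6 to 64.5) on 7 fragments. *Jag2* was thus not seen to be more open where its RNA was highest. *Jag2* was the only member of 9 at least 2-fold higher in germ-like than Sertoli-like nuclei by cuts, beside 13.6% of 18427 genes. In the other direction there were 0, beside 4.99% (18.6% in either direction). The *Hes1* promoter peaks held 33 fragments in pericyte-like nuclei, 2.16-fold above progenitor-like nuclei (1.47 to 3.08), while *Hes1* RNA was 17.6 CPM (9.11 to 30.8, 12 UMIs) in pericyte-like and 30.03 CPM in progenitor-like nuclei, with overlapping intervals. Within 1 kb of the start the ratio rested on 14 and 253 fragments and was within counting error (1.67, 0.902 to 2.86). The deposited start of *Hes1* lies inside the gene as annotated. That window leaves out most of the *Hes1* peak at chr16:30063696-30064495, which is centred 1244 bp before the deposited start and covers the annotated first base (30064384). This peak held 48 of the 62 pericyte-like cuts and 693 of the 965 progenitor-like cuts, so the 2 ratios cover different stretches. Between endothelial-like and pericyte-like nuclei counts were small, with 2 and 8 fragments at *Heyl*. *Jag1* alone of 8 members with enough cuts passed 2-fold, higher in endothelial-like nuclei (on 18 and 6 cuts), beside 11.9% of 9641 genes. That ratio was within counting error (2.07, 0.788 to 6.38), and *Jag1* RNA was higher in pericyte-like nuclei. In the other direction 0 passed 2-fold, beside 6.91% (18.8% in either direction). At *Dll4*, where no promoter peak was called, 11 fragments of endothelial-like and 84 of progenitor-like nuclei lay within 1 kb of the start, 17.1 and 6.61 per 1000000, a ratio of 2.58 (1.24 to 4.86).

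**Figure D5:**
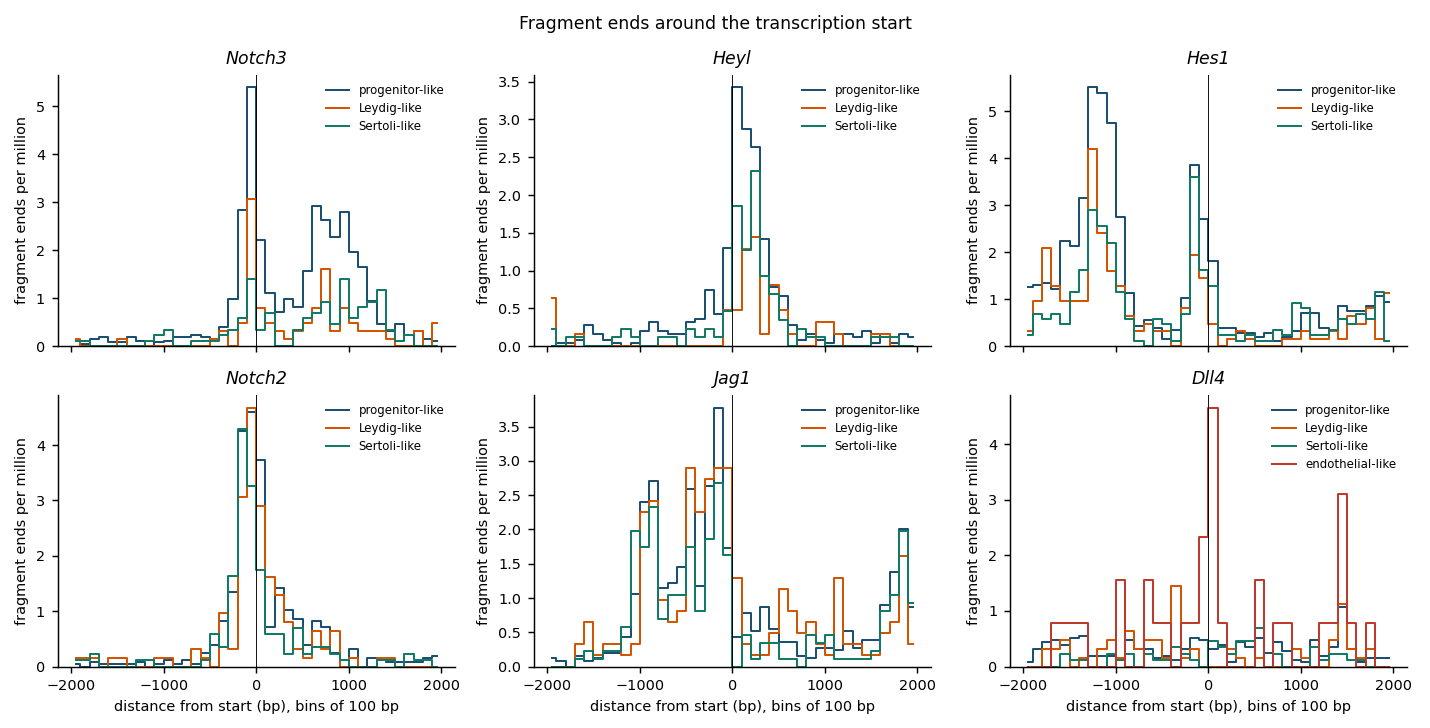
Fragment ends in bins of 100 bp from 2000 bp before to 2000 bp after the start of 6 members, per 1000000 fragment ends of the class. *Notch3* and *Heyl* show more ends in progenitor-like than in Leydig-like nuclei, *Notch2* and *Jag1* show little difference, and *Dll4* has ends at the start in the endothelial-like class, on few fragments.

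Within 10 kb of the members lay 72 peaks, of which 70 had at least 20 cuts over progenitor-like and Leydig-like nuclei. Of these, 21 were at least 2-fold higher in progenitor-like nuclei and 5 in the Leydig-like class, beside 23.3% and 12.6% of 93048 peaks, so the members' peaks as a group stood near the background. They were unevenly shared: 7 of 8 peaks at *Heyl* were higher in progenitor-like nuclei, while *Hey1* had 0 of 3, with 2 higher in Leydig-like nuclei. The *Heyl* peak with the most cuts, in the gene body 6232 bp from the start (chr4:123239332-123240243), held 556 cuts of progenitor-like nuclei and 46 of Leydig-like nuclei, 57.0 and 20.7 per 1000000. Near *Dll4*, a peak 12278 bp from the start (chr2:119337618-119338506) held 24 cuts in endothelial-like nuclei, 57.1 per 1000000, and 194 in progenitor-like nuclei, 19.9 per 1000000. It was also open in classes nearly without *Dll4* RNA, at 41.1 per 1000000 in immune-like (8 cuts) and 31.2 in Sertoli-like nuclei (92 cuts). In *Rbpj*, a peak at chr5:53546890-53547728 held 9 cuts in immune-like nuclei, 46.2 per 1000000, beside 20.7 per 1000000 in pericyte-like (6 cuts) and 1.26 in germ-like nuclei.

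The wider pathway was read from a list of 54 genes, of which 47 had at least 100 UMIs. The highest class was at least 4 times the median of the 11 classes for 14 of these, among them 6 of 9 members and 8 of 38 other genes (21.1%), beside 24.1% of 15226 genes. Among those 8, *Notch4*, a receptor of endothelium, stood at 50.2 CPM in endothelial-like nuclei (110 of its 184 UMIs), or 106 CPM under the doublet threshold. *Hey2*, a Hey-family repressor, was highest in pericyte-like nuclei at 35.3 CPM (22.6 to 52.5), but in endothelial-like nuclei (22.4 CPM) it was 63.5 CPM under the doublet threshold. *Nrarp*, a Notch-induced inhibitor of the pathway, was at 11.8 CPM (8 UMIs) in pericyte-like and 8.67 CPM (19 UMIs) in endothelial-like nuclei, the latter 14.3 CPM under the threshold.

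Away from the vessels, *Dll1*, a Delta-like ligand, was highest in Leydig-like nuclei at 5.85 CPM (51 UMIs), 12.1-fold above progenitor-like nuclei (5.89 to 27.9). *Dlk1*, a non-canonical ligand, was highest in surface epithelium-like nuclei at 397 CPM and was 4.37-fold higher in progenitor-like than in Leydig-like nuclei (4.002 to 4.78), or 8.50-fold under the doublet threshold. *Dtx1*, a ubiquitin ligase, was highest in Sertoli-like nuclei at 45.1 CPM, 6.95-fold above germ-like nuclei (5.73 to 8.48), or 18.4-fold under the threshold. *Aph1c*, of the gamma-secretase complex that cuts the receptor, was highest in Leydig-like nuclei at 23.3 CPM, and *Dner*, a ligand best known from neurons, in pericyte-like nuclei at 14.7 CPM on 10 UMIs. Of genes chosen after their values were seen, *Maml3*, a co-activator that binds the RBPJ complex, was 4.70-fold higher in Sertoli-like than in germ-like nuclei (4.53 to 4.88), *Lfng*, a sugar transferase that modifies Notch, was 7.55-fold higher there (4.49 to 13.3), and *Rbpjl*, a relative of *Rbpj*, had 54 UMIs in germ-like and 1 in Sertoli-like nuclei. Under the threshold the ratios of *Maml3* and *Lfng* were 14.52 and 13.1. *Mfng*, another sugar transferase, had 45 UMIs in endothelial-like and 0 in pericyte-like nuclei.

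Without the members, 6 of 38 pathway genes were at least 2-fold higher in progenitor-like nuclei and 3 in Leydig-like ones, 7 of 42 were higher in Sertoli-like and 7 in germ-like nuclei, and 4 of 33 were higher in endothelial-like and 2 in pericyte-like nuclei. The shares over all genes that passed the same minimum were 15.2% and 13%, 13.9% and 22.6%, and 12.5% and 6.31%, in the same order. The median log2 ratios over these genes were 0.06, 0.18 and -0.04.

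Likeness of pattern was measured as Pearson's r of log2(CPM + 10) over the 11 classes, which share 1 library, and is given as a description. The candidates were 10912 genes with at least 500 UMIs outside the list of 54 pathway genes, so no member could be returned. *Dll4*, *Hey1* and *Jag2* themselves had fewer UMIs, with 93, 160 and 215. Outside endothelial-like nuclei they stood at or below 7.34 CPM in these classes, under the 10 added. Their r therefore rests mostly on the endothelial-like class. The genes most like *Notch3* were *Spon1* (r = 0.967), *Pdgfrb* (0.966) and *Mamdc2* (0.958), and *Spon1* (0.963) was second to *Scn7a* (0.964) for *Heyl*. *Dll4* was most like *Egfl7* (0.997), *Jag2* like *Tek* (0.969), *Hey1* like *Ubr7* (0.954), *Notch1* like *Calcrl* (0.926) and *Jag1* like *Chst2* (0.931). *Rbpj* was most like *Rp2* (0.978), *Notch2* like *Cul9* (0.883) and *Hes1* like *Syt1* (0.879).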

How the data were processed

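RNA and open chromatin of the same nuclei of E14.5 testes were sequenced as 1 RNA and 1 ATAC library. The authors made the deposited counts (UMIs per gene, cuts per peak) and the fragment list with Cell Ranger ARC 2.0.1 on mm10. Nuclei with over 500 genes, over 250 fragments at peaks, under 10% mitochondrial UMIs and the study's limits on ribosomal and haemoglobin genes and on reads and fragments at peaks were kept (7667 of 9833 barcodes), and 470 were removed as doublets by Scrublet rank. The study's limit on blacklisted regions, its doublet caller (scDblFinder) and its removal of free RNA (DecontX) were not applied here. Clusters came from RNA and ATAC together (Seurat 5.3.0, R 4.3.3, resolution 0.3) with 54 Notch pathway genes and their peaks held out. A class was named from marker genes. Levels are UMIs summed over a class, per 1000000 of its UMIs (CPM), with exact Poisson intervals. Ratios have exact conditional binomial intervals, and shares have Clopper-Pearson intervals. Ratios count as past 2-fold on at least 20 UMIs or cuts over both classes. All 10 members were named, of the other pathway genes those whose highest class had at least 4 times the median of the classes on at least 100 UMIs, and the genes most like each member. *Maml3*, *Lfng*, *Rbpjl* and *Mfng* did not meet this rule and were named after their values were seen. The ratio intervals were tried only on class totals simulated with counting error. Those totals held no variation among nuclei and no doublets, so the trial does not bear on either. The members and lists were chosen with earlier results of these data known. Gene positions are from GENCODE vM21, start and peak positions from the deposited files, and promoter sequences from RefSeq. The deposited counts are whole UMIs, and an alternative subtracted a free RNA profile from them. That profile was the summed counts of all 9833 barcodes and not a measured background. Other alternatives changed the doublet limit, minimums, clustering, weighting of nuclei, depth, promoter window and the use of fragments.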

Additional observations from a re-analysis of the deposited data

How the results depend on the processing

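No paired analysis was possible because there was 1 library of each assay. The number of members past 2-fold was 5 for progenitor-like against Leydig-like nuclei and stayed between 4 and 6 under every alternative run. For Sertoli-like against germ-like nuclei it was 3, and it became 6 at the automatic Scrublet threshold, 6 with free RNA subtracted, 6 with the same clusters without nuclei over that threshold (an alternative chosen after seeing the data) and 1 with at least 100 UMIs over both classes, where fewer members were tested, and lay between 2 and 4 under the rest. For endothelial-like against pericyte-like nuclei it was 6, and 3 with at least 100 UMIs over both classes. The other alternatives that gave a value had 6 or 7. Shares over all genes were not counted under the alternatives, so a move of the members cannot be told from a move of all genes. Of 368 alternative values of single RNA ratios, 280 lay inside the interval of the value over all kept nuclei and 88 outside. Those 280 include 30 values with no minimum on UMIs and 30 with at least 100 UMIs. Both settings change only which members are tested, so these values could not move. Of 54 for promoter ratios 53 lay inside and 1 outside. The peaks within 2 kb were the same as within 1 kb for *Notch1*, *Notch2*, *Notch3*, *Jag2*, *Hey1* and *Heyl*, so those values could not move either. None of the called ratios turned direction. Clusters from ATAC alone gave no endothelial-like or pericyte-like class, and stricter minimums gave no pericyte-like class, so those ratios have no value there. Where not stated, the cause of a move was not tested. Rare classes limit precision: pericyte-like nuclei numbered 66.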

Other observations

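The progenitor-like class held a cluster of 2023 nuclei and a cluster of 572 nuclei led by cell cycle genes. *Jag1* stood at 151 CPM (144 to 158) in the larger and 109 CPM (101 to 118) in the cycling cluster, *Notch3* at 186 CPM (178 to 193) and 160 CPM (150 to 170), and *Notch2* at 295 CPM (285 to 304) and 300.2 CPM (286 to 315). *Heyl* stood at 46.6 CPM (42.9 to 50.5) and 42.1 CPM (37.0 to 47.8). These are values of clusters within 1 library, with no replicate check.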
